A study of Homo sapiens with 10 samples.

Results

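MicroRNA hairpin genes are the short stretches of genome that are transcribed into the stem-loop precursors of microRNAs. All autosomal genes annotated as miRNA in GENCODE release 44 on GRCh38 were taken, which gave 1759 hairpins with a median length of 80 bp (range 41 to 180 bp). Nucleosome positions were assigned to a hairpin when their midpoint lay within 1000 bp of its centre, and distances were read along the hairpin's own strand. By the overlap of the hairpin with protein-coding and lncRNA genes, 1082 hairpins lay within an intron, 261 were intergenic and 416 overlapped an exon.

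The positions came from undifferentiated human induced pluripotent stem cells (hiPSCs) of the PB010.5 line, which carries a FUCCI cell cycle reporter in the EEF2 locus in all samples. Chromatin of these cells was cut for 5 min with micrococcal nuclease (MNase), an enzyme that digests linker DNA and leaves nucleosomal DNA, at 5 enzyme amounts, from 0.5 U and 1 U over 3 U to 6 U and 10 U. Each of the 5 digestions gave 1 library without a replicate. Each library was read in 2 paired-end runs of different read length and depth, which makes 10 samples, 5 of them labelled low depth. The deposited values form a single list of 12921589 positions of 140 bp, called on pooled libraries, of which 12465711 lay on autosomes, so no value belongs to a single MNase amount and the effect of the enzyme amount at hairpins was not analysed here. Each position carries a score, the authors' own signal value. Its scaling and the reads behind it are not given in the sources used here, so the depth behind a single score is unknown. Scores rose in steps of 1.23 and had a median of 14.8 on the autosomes. Of the autosomal midpoints, 94.4% lay on a common 10-bp grid, so most midpoints are given in steps of 10 bp. How precisely a position places a nucleosome was not measured. Bases counted as inside a position below are those of the called interval.

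MicroRNA genes are transcribed by RNA polymerase II, either as part of a host gene, usually from an intron, or from promoters of their own, and several hairpins often share a single primary transcript. The hairpin is cut out in the nucleus by Drosha with DGCR8 and trimmed in the cytoplasm by Dicer, and the mature strand guides Argonaute to target mRNAs through its seed. In pluripotent cells the miR-302 cluster, which includes miR-367, and its seed relatives are known for promoting cell cycle progression and for maintaining the undifferentiated state, whereas let-7 is known for the opposite role in differentiation.

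The mature microRNAs of the pluripotency-associated and proliferation-associated clusters are shown because their hairpins are described locus by locus below. They are RefSeq sequences of GRCh38.p14, written 5′ to 3′ with the seed, bases 2 to 8, in capitals. Those shown from the miR-302 genes, MIR372, MIR373 and MIR520A share the seed AAGUGCU:
hsa-miR-302a-3p: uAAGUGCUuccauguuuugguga
hsa-miR-302b-3p: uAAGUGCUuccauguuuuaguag
hsa-miR-302c-3p: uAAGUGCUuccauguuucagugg
hsa-miR-302d-3p: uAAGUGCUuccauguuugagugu
hsa-miR-372-3p: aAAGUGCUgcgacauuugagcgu
hsa-miR-373-3p: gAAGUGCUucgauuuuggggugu
hsa-miR-520a-3p: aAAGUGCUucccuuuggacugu
The miR-17 group carries the seed AAAGUGC, which shares the run AAGUGC with AAGUGCU, moved by a base:
hsa-miR-17-5p: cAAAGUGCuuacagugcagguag
hsa-miR-20a-5p: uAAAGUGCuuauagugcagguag
hsa-miR-93-5p: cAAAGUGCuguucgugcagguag
hsa-miR-106b-5p: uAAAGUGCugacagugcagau
Another seed, AUUGCAC, is common to members of the miR-302, miR-17-92 and miR-106b-25 clusters:
hsa-miR-367-3p: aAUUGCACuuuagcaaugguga
hsa-miR-92a-3p: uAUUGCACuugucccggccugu
hsa-miR-25-3p: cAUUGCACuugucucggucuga
The let-7 family carries GAGGUAG:
hsa-let-7a-5p: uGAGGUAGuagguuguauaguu
hsa-let-7e-5p: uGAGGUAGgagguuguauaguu

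A hairpin centre was called covered when it lay inside a position. Of the 1759 hairpins, 1114 or 63.3% were covered (95% Wilson interval 61.1 to 65.6%), 66 of them by 2 overlapping positions. As a background, points were set every 10000 bp along the autosomes and treated as features of 80 bp, and 60.3% of the 275473 such points without unsequenced bases nearby were covered. The share of covered hairpins was thus close to that of the grid, although the grid share lay below the hairpins' Wilson interval. The 3 points between them were smaller than the scatter of the hairpins' share over the 22 single autosomes (SD 7.89 points, mean 62.8%). Intervals of this kind cover counting error only and treat hairpins as independent, although 327 hairpins started within 2000 bp of another.

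The windows around hairpins held a mean of 9.92 positions (mean over autosomes 9.72 ± 1.20, SD, n = 22), with a median of 10, quartiles of 9 and 12 and a maximum of 15. Grid windows held 9.04 (mean over autosomes 9.0 ± 0.443, SD, n = 22). The mean score within 1000 bp averaged 18.2 around hairpins (over autosomes 17.9 ± 1.53, SD, n = 22) and 15.4 around grid points (over autosomes 15.7 ± 1.09, SD, n = 22). Hairpins therefore lay where positions scored higher than at the grid, by more than the spread over autosomes. Hairpin windows were also richer in GC, at 48.9% against 40.9% in the grid, and within bands of window GC the scores lay close together. They averaged 13.7 and 13.3 below 40% GC, 17.4 and 16.8 at 40 to 50%, and 21.0 and 20.6 at 50% or more, for hairpins and grid points. Across the 1684 hairpin windows with a position, score and GC of the window were correlated with a Spearman rho of 0.73, and across 263217 grid windows with 0.70. Neighbouring windows share positions and all come from 1 list, so these coefficients are descriptions of that list.

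Midpoints were not concentrated at the hairpin. The log2 ratio of the midpoint density within 100 bp of the centre to that 500 to 1000 bp away was 0.01 for all hairpins, with an SD over 22 autosomes of 0.14. It was 0.01 for intronic hairpins (SD 0.15, 22 autosomes) and -0.07 for intergenic hairpins (SD 0.31, 15 autosomes with at least 10 of them). The difference of 0.07 between these classes was smaller than its SD of 0.37 over the 15 autosomes that held at least 10 hairpins of both. At grid points the ratio was -0.01 with an SD of 0.01. In 10-bp bins smoothed over 5 bins, the density of all hairpins had its lowest value within 300 bp, 0.891 times the flank, at -5 bp and its highest, 1.12 times, at -95 bp. Bins in the flank itself ran from 0.911 to 1.09. From -50 bp to the centre the density was 0.897 times the flank, below it on 15 of 22 autosomes, and from 50 to 120 bp downstream it was 1.09 times the flank, above it on 17 of 22. Both departures were within the spread over autosomes, at 0.909 ± 0.206 and 1.11 ± 0.135 (SD, n = 22).

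**Figure D1:**
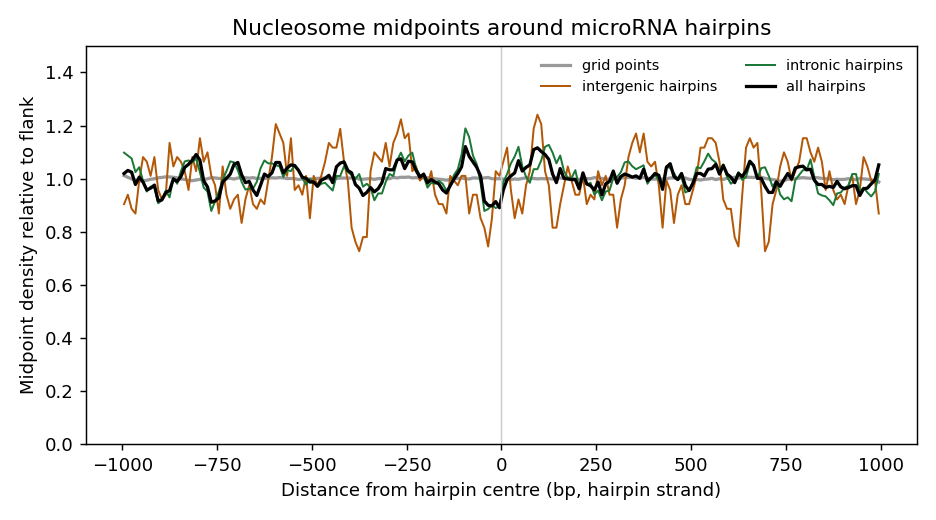
Density of position midpoints in 10-bp bins, smoothed over 5 bins, relative to the density 500 to 1000 bp away, by distance from the hairpin centre on the hairpin's strand, for all, intronic and intergenic hairpins and grid points. All hairpins stay between 0.891 and 1.12 within 300 bp, and the 261 intergenic hairpins vary more from bin to bin.

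Intronic hairpins were covered more often than intergenic ones. A position lay over the centre of 710 of 1082 intronic hairpins, 65.6% (Wilson 62.7 to 68.4%), and of 139 of 261 intergenic hairpins, 53.3% (47.2 to 59.2%). Exonic hairpins stood at 63.7% (59.0 to 68.2%, 265 of 416). Of grid points, 62.9% of intronic, 55.6% of intergenic and 67.5% of exonic ones were covered, so that intronic points stood above intergenic ones there too, while the exonic class, highest in the grid, was not the highest among hairpins. The intronic share was the higher on 13 of the 15 autosomes that held at least 10 hairpins of both classes. The mean difference was 11.2 points, with an SD of 12.8 points between autosomes. That SD is the scatter of single autosomes, some with few intergenic hairpins, and not the uncertainty of the mean. Chromosome 16 had the widest gap, 51.0% of 49 intronic against 18.2% of 11 intergenic hairpins, and chromosomes 2 and 17 had the opposite order, with 69.3% against 83.3% and 62.1% against 66.7%.

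**Figure D2:**
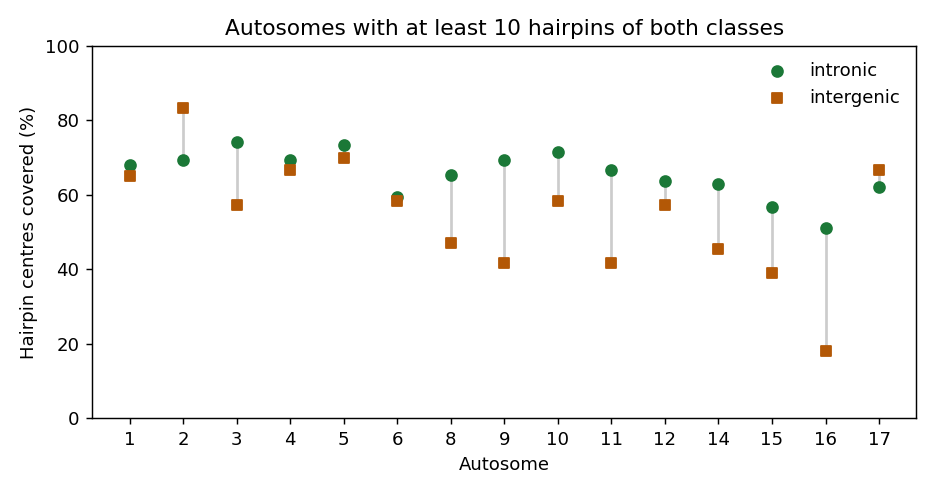
Percentage of hairpin centres inside a position on each of the 15 autosomes with at least 10 intronic (circles) and 10 intergenic (squares) hairpins, joined by a line. The circle lies above the square on 13 autosomes and below it on chromosomes 2 and 17.

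Intronic windows held 10.2 positions and intergenic windows 8.60, a difference of 1.56 positions with an SD of 1.77 over the 15 autosomes, and the intronic value was the higher on 12 of them. The mean score in the window was 18.0 in introns and 17.3 between genes, 0.06 apart on the log2 scale where the SD over autosomes was 0.15. Where a position covered the centre, its median score was 18.5 in introns and 14.8 between genes, and the intronic median was the higher on 12 of 15 autosomes. The grid had the same order of classes. Intronic and intergenic grid points had 9.45 and 8.36 positions per window, mean scores of 15.6 and 14.9 and median covering scores of 14.8 and 13.6.

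Part of the hairpins had no called position at all in their window. There were 75 of them, 4.26% of all hairpins, against 4.45% of grid windows. They made up 27 of 1082 intronic (2.50%), 31 of 261 intergenic (11.9%) and 17 of 416 exonic hairpins (4.09%), beside 1.59% of intronic and 8.76% of intergenic grid points. Chromosome 16 held 20 of them, chromosome 15 held 14, chromosome 21 held 10 and chromosome 2 held 9. Among these hairpins were the multi-copy genes MIR3179-1 to MIR3179-4, MIR3670-1 to MIR3670-4 and MIR3180-1 to MIR3180-3 of chromosome 16, MIR4509-1 to MIR4509-3 and MIR1233-1 and MIR1233-2 of chromosome 15, and MIR6724-1 to MIR6724-4 of chromosome 21, which were named after their values were seen. Of the 76 hairpins whose whole sequence recurs in another autosomal hairpin gene, 53 had no position in the window and 1 was covered. Whether reads from such copies could be placed was not tested. With windows lacking a position left out, 67.3% of 1055 intronic (64.4 to 70.1%) and 60.4% of 230 intergenic hairpins (54.0 to 66.5%) were covered, the 2 intervals overlapped, and the windows held 10.4 and 9.76 positions. Over the same kind of grid windows, 63.9% of intronic and 61.0% of intergenic points were covered. Leaving these windows out was chosen after seeing the data.

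The GC content of the hairpin itself went with coverage. Hairpins below 40% GC were covered in 49.7% of 350 cases, those of 40 to 50% in 62.7% of 442, and those of 50% or more in 68.6% of 967. The 80-bp grid intervals rose more steeply over the same bands, from 49.6% to 67.4% and 74.0%. In the highest band the hairpins' interval, 65.6 to 71.4%, lay below the grid value, and in the middle band the interval of 58.1 to 67.1% did too. By GC of the hairpin, the share was thus below that of the grid in these 2 bands, although the overall share was the higher. These intervals cover counting error only, and the spread over autosomes was not computed within GC bands. By GC of the window the lowest band had the opposite order, with 61.1% of hairpins (56.1 to 65.8%) against 53.6% of grid points below 40% GC, 61.1% (57.1 to 65.0%) against 66.9% at 40 to 50% and 66.0% (62.7 to 69.2%) against 69.4% at 50% or more. With windows lacking a position left out of both, the 2 upper bands of hairpin GC still lay below the grid, at 64.3% (59.6 to 68.6%) against 71.3% and at 72.0% (69.0 to 74.8%) against 76.1%.

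The classes did not keep 1 order over GC. By GC of the window, the intronic and intergenic shares were 62.6% and 54.0% below 40%, 61.5% and 60.0% at 40 to 50%, and 71.5% and 46.6% at 50% or more. The gap between classes was thus small in the middle band and wide in the highest. In the highest band, intronic windows held 10.7 positions and intergenic windows 8.22. These shares include windows lacking a position, which were not left out by GC of the window. By GC of the hairpin, intronic hairpins below 40% were covered in 54.4% of 241 cases and intergenic ones in 37.5% of 64. At 40 to 50% the values were 61.8% of 306 and 69.0% of 58, with overlapping intervals. At 50% or more they were 72.9% of 535 (69.0 to 76.5%) and 54.0% of 139 (45.7 to 62.0%), where intergenic grid intervals stood at 72.3%. Of the intergenic hairpins in this band, 121 had a position in the window, and 62.0% of these were covered (53.1 to 70.1%), beside 75.5% of such grid intervals.

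**Figure D3:**
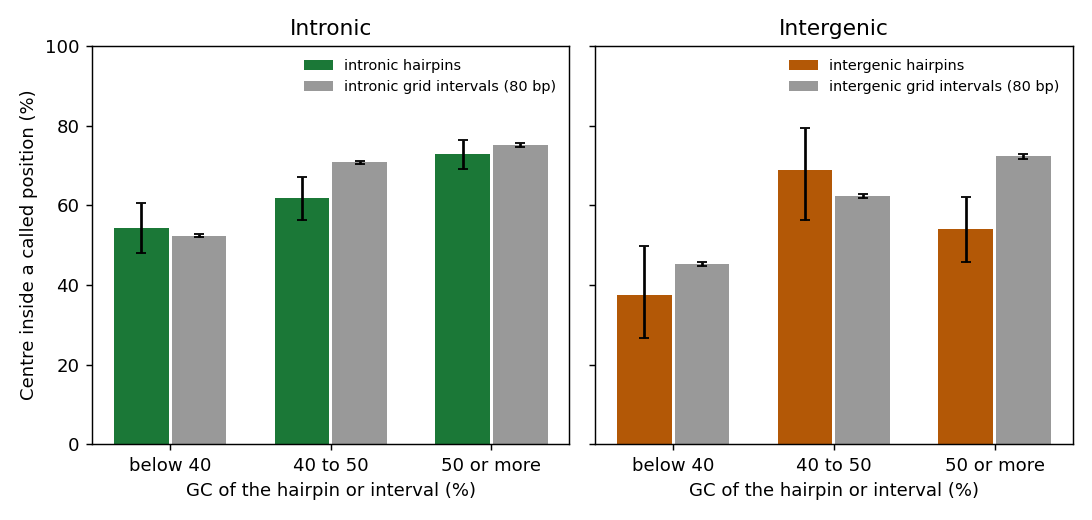
Percentage of centres inside a position by GC of the hairpin or 80-bp grid interval, for intronic (left) and intergenic (right) features, with 95% Wilson intervals. Grid intervals rise with GC in both panels, and intergenic hairpins of 50% GC or more stand at 54.0% against 72.3% for the grid.

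Coverage of intronic hairpins ranged with the type and strand of the host. Hairpins in introns of protein-coding genes and on the same strand as the host, the arrangement in which the host transcript itself contains the hairpin, were covered in 69.5% of 698 cases (66.0 to 72.8%). Those antisense to a protein-coding host reached 60.8% of 130 (52.2 to 68.7%), those sense to a lncRNA host 57.9% of 209 (51.1 to 64.4%) and those antisense to a lncRNA host 55.6% of 45 (41.2 to 69.1%). The interval of the sense protein-coding group did not overlap that of the sense lncRNA group. The latter held 44 hairpins of the chromosome 19 miRNA cluster described below, of which 18 were covered, and without them its share was 62.4% of 165 (54.8 to 69.5%), an interval that overlaps that of the sense protein-coding group, a split chosen after seeing the data. Window GC in these 4 groups was 47.9%, 46.4%, 47.4% and 43.1%, and the hairpins' own GC was 51.4%, 49.1%, 48.0% and 45.3%, in the same order. The part of GC in these shares was not tested. In the sense protein-coding group the midpoint density was 1.14 times the flank from the centre to 50 bp downstream, and above the flank on 17 of 21 autosomes, at 1.17 ± 0.294 (SD, n = 21). From -50 bp to the centre it was 0.940 times the flank, and below it on 13 of 21. It was 1.11 times the flank from -120 to -50 bp and 0.998 times from 50 to 120 bp.

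Mirtron-like hairpins, which fill a short intron so that splicing rather than Drosha can free the precursor, were set apart by both ends lying within 10 bp of the splice sites. Of 32 such hairpins, 20 classed as intronic and 12 as exonic, 25 were covered, 78.1% (61.2 to 89.0%), with a median covering score of 22.2. Their own GC averaged 68.6%. The other intronic hairpins whose windows had 50% GC or more were covered in 71.5% of 397 cases (66.9 to 75.8%), and their own GC averaged 58.8%. Of the 80-bp grid intervals of 50% GC or more, 74.0% were covered. Both shares lay within the interval of the mirtron-like group. Distance to a transcription start gave no steady order. Intronic hairpins within 1000 bp of a start were covered in 65.7% of 198 cases and the others in 65.6% of 884, while among intergenic hairpins the shares were 37.1% of 35 (23.2 to 53.7%) and 55.8% of 226 (49.2 to 62.1%).

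The miR-302 cluster, the leading microRNA cluster of undifferentiated human cells, lay in a stretch of low scores. Its 5 hairpins occupy 684 bp of an exon of the lncRNA MIR302CHG at chr4:112647874-112648557 on the minus strand, in windows of 34.2 to 36.4% GC. The cluster was overlapped by 3 positions, with scores of 8.64, 7.40 and 12.3 from its 5′ to its 3′ end. None of these was above percentile 33.7 of the autosomal scores. The windows held 6 or 7 positions with mean scores of 10.4 to 10.9, and their median of 10.8 was the lowest of the families described here. Grid windows below 40% GC held 8.02 positions with a mean score of 13.3. Centres of MIR302C and MIR367 were covered, and those of MIR302A, MIR302B and MIR302D were not. The midpoints within the cluster stood 135 and 350 bp apart, and the wide gap held most of MIR302D and of MIR302A. In the gene sequences from hg38, with bases inside a position in capitals, the 5 hairpins read, in transcription order:
MIR302B: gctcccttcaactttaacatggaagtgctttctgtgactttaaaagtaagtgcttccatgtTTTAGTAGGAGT
MIR302C: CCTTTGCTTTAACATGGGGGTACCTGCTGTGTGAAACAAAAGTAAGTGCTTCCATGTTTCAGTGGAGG
MIR302A: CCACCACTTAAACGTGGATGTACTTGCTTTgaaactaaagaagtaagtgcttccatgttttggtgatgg
MIR302D: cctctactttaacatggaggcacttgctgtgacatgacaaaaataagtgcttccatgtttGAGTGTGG
MIR367: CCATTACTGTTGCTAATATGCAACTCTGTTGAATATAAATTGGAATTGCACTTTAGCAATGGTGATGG
Of the 346 hairpin bases, 186 or 53.8% lay inside a position. Grid points in windows below 40% GC were covered in 53.6% of cases, so the share of bases was close to that background. For the mature strands printed above, all 23 bases of miR-302c-3p and all 22 of miR-367-3p fell inside, with 8 of 23 for miR-302b-3p, 6 of 23 for miR-302d-3p and 0 of 23 for miR-302a-3p.

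The miR-371 cluster of chromosome 19, which is also known from pluripotent cells and holds MIR372 and MIR373 with the seed of miR-302, had a position over each of its 4 hairpin genes: MIR371A and its antisense partner MIR371B by a position of score 12.3, MIR373 by a position of 14.8 and MIR372 by a position of 24.7 at percentile 86.5. The Wilson interval for 4 of 4 was 51.0 to 100%, which includes the 63.3% of all hairpins and the 60.3% of the grid. MIR371A and MIR371B share a position, so even these 4 are not independent. The windows had 50.8 to 52.2% GC and mean scores of 15.8 to 16.3. Over the 1099 bp from MIR371A to MIR373 at chr19:53787675-53788773, 7 positions were called with a median spacing of 140 bp, and 193 of the 203 bases of MIR371A, MIR372 and MIR373 lay inside a position. MIR372 is the hairpin with a gap, since its 5′ arm crosses the end of a position of score 9.87 and the start of the next one:
MIR372: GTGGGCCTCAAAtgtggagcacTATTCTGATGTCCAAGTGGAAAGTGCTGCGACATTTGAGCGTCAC
MIR373: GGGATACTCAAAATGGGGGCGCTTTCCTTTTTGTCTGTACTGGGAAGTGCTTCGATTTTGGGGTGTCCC

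All 9 hairpins of the miR-17-92 and miR-106b-25 clusters, which are known for promoting proliferation, were covered. Their Wilson interval, 70.1 to 100%, lay above the 63.3% of all hairpins and the 60.3% of the grid. It treats the 9 hairpins as independent, although the members of each cluster lie side by side in overlapping windows. Whether the clusters differ from other hairpins was therefore not tested. The 6 hairpins of miR-17-92 stand within 787 bp of an exon of MIR17HG at chr13:91350605-91351391, and 7 positions overlapped them with a median spacing of 120 bp. This spacing is shorter than the 140 bp of a position, so neighbouring positions overlapped and cannot all be occupied on the same chromosome copy. Scores ran from 7.40 over MIR20A to 21.0 over MIR18A, with 11.1 over MIR17 and MIR19A, 12.3 over MIR92A1 and 13.6 over MIR19B1. Of the 473 hairpin bases, 92.6% lay inside a position. The windows had 35.1 to 36.4% GC and mean scores of 11.5 to 12.2. At miR-302 these were 34.2 to 36.4% and 10.4 to 10.9, and 53.8% of hairpin bases lay inside a position. Of grid points in windows below 40% GC, 53.6% were covered. In the last hairpin of the cluster the 5′ arm lay in a gap and the mature 3′ arm inside a position:
MIR92A1: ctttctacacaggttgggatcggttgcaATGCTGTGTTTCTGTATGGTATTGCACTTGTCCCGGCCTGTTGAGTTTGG
The 3 hairpins of miR-106b-25 lie in MCM7, a gene of the replicative helicase, over 515 bp at chr7:100093560-100094074. Their covering scores were 17.3 for MIR106B, 16.0 for MIR93 and 22.2 for MIR25, in windows of 51.2 to 53.8% GC with mean scores of 17.2 to 17.8.

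**Figure D4:**
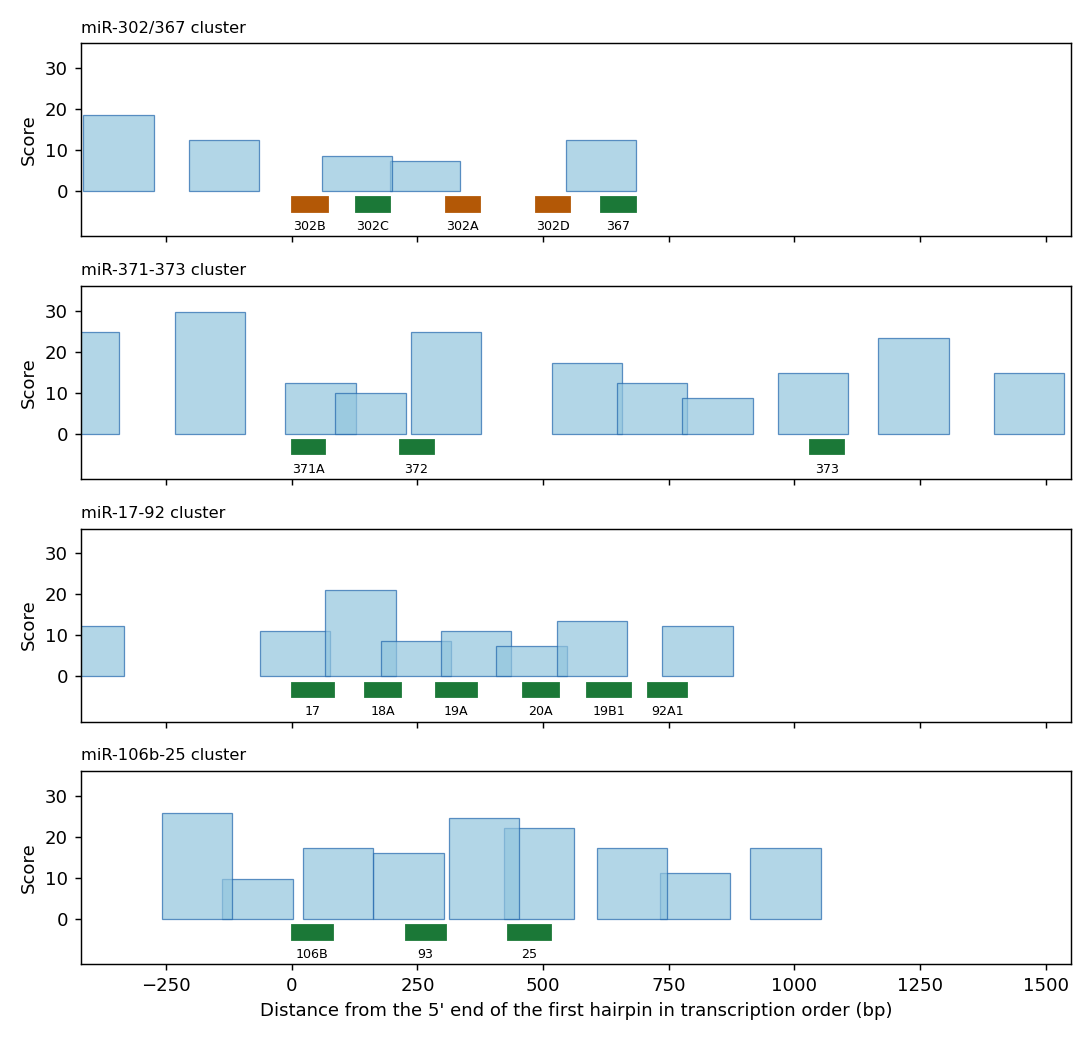
Positions (blue boxes, 140 bp wide, height the score) and hairpins (bars under the axis, green where the centre is covered and orange where it is not) by distance from the 5′ end of the first hairpin in 4 microRNA clusters. The 3 orange bars are MIR302B, MIR302A and MIR302D, and the 12 hairpins drawn in the other clusters are green.

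Hairpins were also counted by seed, beside 63.3% covered among all hairpins and 60.3% of the grid. Of the 12 autosomal hairpins with the seed AAGUGCU in RefSeq, 5 were covered, namely MIR302C, MIR372, MIR373, MIR520A and MIR520D. Of the 6 with AAAGUGC, MIR519D was the uncovered one. All 5 with AUUGCAC were covered, among them MIR32 and MIR92B. Of the 12 with GAGGUAG, 6 were covered. With counts of this size the 95% intervals were wide, 19.3 to 68.0% for AAGUGCU and 56.6 to 100% for AUUGCAC, and both include the shares of all hairpins and of the grid.

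The chromosome 19 miRNA cluster (C19MC), a primate-specific array of related hairpins that is imprinted and known for its expression in placenta, was covered less often than the DNA around it. Centres of 19 of its 46 hairpins lay inside a position, 41.3% (28.3 to 55.7%), whereas 70.2% of all 95667 bases from the first to the last hairpin centre did. The windows themselves did not stand out, with 10.5 positions each and a mean score of 17.7, against 10.6 positions per window length and a mean score of 17.6 over the whole span. The other 95 hairpins of chromosome 19 were covered in 74.7% of cases (65.2 to 82.4%), in windows of 56.9% GC against 46.7% in the cluster. Around the C19MC hairpins the midpoint density was 0.720 times the flank from -50 bp to the centre and 0.40 times from the centre to 50 bp, on 9 and 5 midpoints. It was 1.32 times the flank from -120 to -50 bp and 1.26 times from 50 to 120 bp, on 23 and 22 midpoints, so that midpoints lay beside the hairpins more than over them. The hairpins of the cluster are copies of a common repeat unit and are not independent of each other. Scores of the covering positions ran from 7.40 for MIR518A1, MIR520G and MIR525 to 29.6 for MIR1323.

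The imprinted cluster of chromosome 14, in the DLK1-MEG3 region, showed a smaller difference. Of its 51 hairpins, 30 or 58.8% were covered (45.2 to 71.2%), and 64.7% of the 197660 bases of its span lay inside a position, within that interval. The other 47 hairpins of chromosome 14 stood at 55.3% (41.2 to 68.6%). The density around the hairpins was 0.829 times the flank from -50 bp to the centre and 0.483 times from the centre to 50 bp, on 12 and 7 midpoints. It was 0.942 times from -120 to -50 bp and 1.29 times from 50 to 120 bp, on 19 and 26 midpoints. MIR544A had the highest covering score of the cluster, 27.1, and MIR299 the lowest, 8.64.

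Of the 10 autosomal let-7 hairpins, 5 were covered (23.7 to 76.3%, an interval that includes the share of all hairpins and of the grid). Covered were MIRLET7A1 (score 7.40), MIRLET7B (14.8), MIRLET7C (23.4), MIRLET7F1 (9.87) and MIRLET7I (18.5). MIRLET7A2, MIRLET7A3, MIRLET7D, MIRLET7E and MIRLET7G were not, and their nearest midpoints lay 85 to 126 bp from the centre. Window scores broadly rose with the GC of the locus, from 12.0 around MIRLET7A1 at 34.7% GC to 25.2 around MIRLET7B at 63.7% GC. The order was not strict, with 15.2 around MIRLET7A2 at 37.9% GC and 13.3 around MIRLET7D at 39.9% GC. MIRLET7A3 and MIRLET7B, which share the host MIRLET7BHG, had window scores of 24.5 and 25.2, so hairpins with similar surroundings differed in whether a position lay over them.

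Hairpins of the miR-200 family, which restrains the epithelial-to-mesenchymal transition, had the highest median window score of the families, 27.9, with a range of 25.1 to 29.8 at 59.0 to 70.4% GC. MIR200B was covered by a position of score 34.5 with its midpoint 1 bp from the centre, and MIR200A by one of 16.0. MIR200C, MIR141 and MIR429 were uncovered, although the position nearest to MIR200C, with its midpoint at -81 bp, scored 44.4, which is percentile 99.7.

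Among hairpins of differentiated tissues, those of muscle and heart were covered in 4 of 9 cases. MIR208A and MIR208B, in introns of the cardiac myosin genes MYH6 and MYH7, were uncovered, with midpoints at -91 and -77 bp scoring 30.8 and 33.3. MIR499A in MYH7B was covered by a position of score 29.6, and MIR1-1 by one of 25.9. The 2 copies of the same mature microRNA could differ: MIR1-1, in a window of 63.5% GC, had a mean window score of 29.2, and MIR1-2, at 30.2% GC, one of 10.4 and no position over its centre. MIR133A1 (14.8) and MIR206 (17.3) were covered, while MIR133A2 and MIR133B were not.

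The neural hairpins were covered in 8 of 11 cases. The 3 copies of MIR124, which promotes neuronal identity, each had a midpoint within 12 bp of the centre, at -12, -1 and -1 bp for MIR124-1, MIR124-2 and MIR124-3, with scores of 12.3, 11.1 and 9.87. These scores lay at or below percentile 33.7 although the windows had mean scores of 17.8, 17.5 and 20.2. MIR128-1 (25.9), MIR128-2 (19.7), MIR218-1 (21.0) and MIR218-2 (6.17), all in introns of protein-coding hosts, were covered too. Of the 3 copies of MIR9, MIR9-2 was covered by 2 positions, and MIR9-1 and MIR9-3 were not. MIR137 had the most distant midpoint of these hairpins, at -161 bp.

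Of 6 autosomal blood and liver hairpins, 2 were covered. MIR150, a lymphocyte microRNA, was covered by a position of score 44.4 with its midpoint 5 bp from the centre, and MIR451A, of erythroid cells, by 2 positions, the nearer scoring 29.6. The liver microRNA MIR122 and MIR142, MIR144 and MIR155 of blood cells had no position over the centre. Of the genes for miR-143, miR-145 and miR-34, 4 of 5 were covered, MIR145 by a position of 23.4, MIR34A by 17.3, MIR34B by 7.40 and MIR34C by 24.7, while the midpoint nearest to MIR143 lay 71 bp downstream of its centre. Shares over so few members had wide intervals, 18.9 to 73.3% for the muscle and heart hairpins and 43.4 to 90.3% for the neural ones, and both include the 60.3% of the grid. The interval of the miR-17-92 and miR-106b-25 hairpins, 70.1 to 100%, lay above the grid share. That of C19MC, 28.3 to 55.7%, lay below it. Hairpins within these clusters are not independent of each other.

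**Figure D5:**
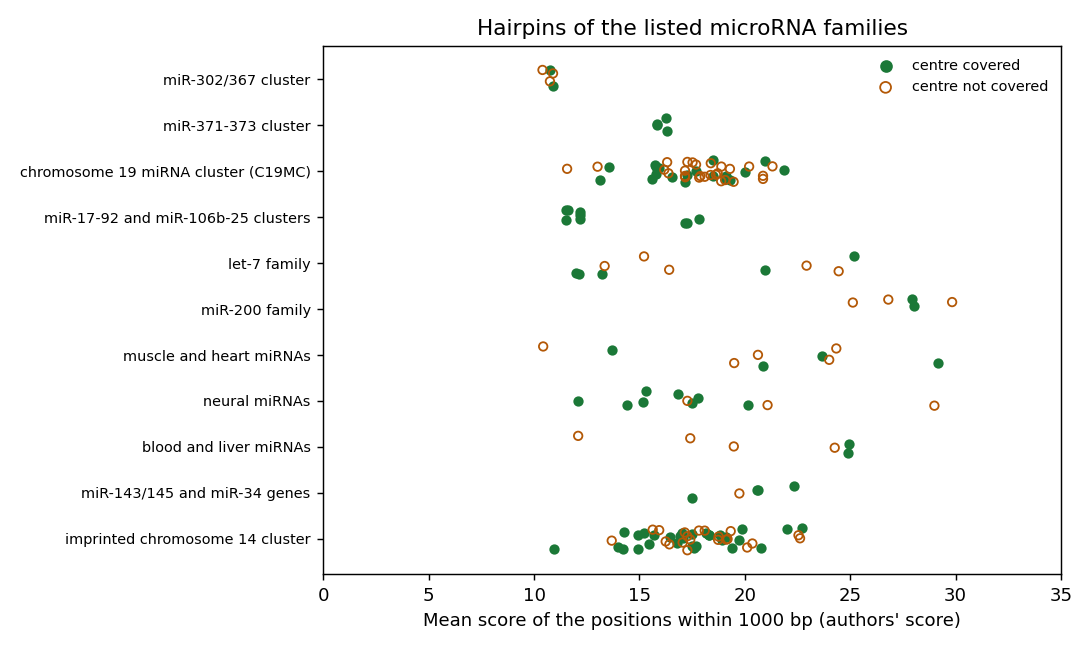
Mean score of the positions within 1000 bp of each hairpin in 11 families or clusters, with filled points where the hairpin centre is covered and open points where it is not (vertical scatter within a row has no meaning). The 5 hairpins of miR-302 lie between 10.4 and 10.9 and the 5 of the miR-200 family between 25.1 and 29.8.

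The highest score over any hairpin centre was that of MIR6825, in an intron of TPRA1 at chr3:127575266-127575331 on the minus strand. The position chr3:127575282-127575421 had a score of 72.8, above 99.997% of autosomal positions, and lay over 50 of its 66 bases, which are in capitals in the hairpin sequence:
MIR6825: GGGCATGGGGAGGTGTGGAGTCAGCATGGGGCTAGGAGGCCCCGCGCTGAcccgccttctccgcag
The other intronic hairpins with the highest covering scores were MIR4531 in CEACAM16-AS1 (48.1) and MIR4654 in NOS1AP (41.9). The highest intergenic ones were MIR345 (46.9), MIR557 (45.7) and MIR150 (44.4). All 6 hairpins had a GC content of 54.1 to 71.2%. Covering scores over all covered hairpins ran from 4.94 to 72.8 with a median of 17.3 and quartiles of 12.3 and 24.7.

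The most positions in a window were 15 among intronic hairpins, reached by 7 of them, of which MIR4261 in RRM2, MIR6811 in MLPH and MIR6835 in HMGA1 come first by coordinate. Their covering scores were 7.40 for MIR4261 and 12.3 for MIR6811, and MIR6835 was uncovered. Among intergenic hairpins the most was 14, reached by 5, with MIR557, MIR4682 and MIR7154 first by coordinate and covering scores of 45.7, 29.6 and 22.2. Windows with many positions thus included both low and high scores over the hairpin.

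Small nucleolar RNA (snoRNA) genes, which also often sit in introns, gave values beside those of hairpins, without a test. Of 893 autosomal snoRNA genes, 66.7% were covered (63.6 to 69.8%), with a mean window score of 15.5 against 18.2 for hairpins and a window GC of 42.9% against 48.9%. Their log2 central density was 0.08 with an SD of 0.14 over 22 autosomes. In introns 69.7% of 468 and between genes 65.1% of 186 snoRNA genes were covered.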

How the data were processed

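MNase-seq libraries of hiPSCs were trimmed with Trimmomatic 0.40 and aligned to GRCh38, blacklisted regions were removed, and positions were called on pooled libraries in the nucMACC workflow, as the paper's methods and the labels state. Which runs were pooled, the caller and the scaling of the score are not given in the sources used here, and according to the methods the runs with shorter reads were not carried further. The deposited score is a signal value per position, and it was used as deposited. How reads of these libraries that map to several places were treated is not given in the sources used here.

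Hairpins came from GENCODE release 44 (the methods name release 48). The midpoint was the start plus 70 bp in 0-based terms, and coordinates are printed 1-based. Grid points were kept where no base in the window was unsequenced. GC was taken over the 2001-bp window or the hairpin. The class counted any protein-coding or lncRNA gene on either strand. RefSeq held a hairpin of the same symbol for 1410 of the 1759. The members, families and comparisons were chosen with earlier results of these data known. Named were the autosomal members of 11 listed families, and the 3 intronic and 3 intergenic hairpins with the highest covering score and with the most positions. The splits by mirtron-like form, host and identical copies were added after seeing the data.

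A pooled list has no replicates, so nothing was tested between groups of samples. The spread is the SD over autosomes with at least 10 hairpins, and shares have 95% Wilson intervals. This SD describes the scatter of single autosomes and is not the uncertainty of a mean over them. Alternatives changed the positions, the hairpins, the host rule, the GC band and the reference point. Python 3.11.15, NumPy 2.4.6, pandas 2.3.3, SciPy 1.17.1 and matplotlib 3.10.9 were used, and the calculations were first tested on simulated positions.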

Additional observations from a re-analysis of the deposited data

How the results depend on the processing

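No paired analysis was possible because the pooled list carries no replicate numbers. Of 106 values recomputed for 9 results under 17 alternatives, 102 moved by less than the spread. The spread was the SD over autosomes, or the Wilson interval for shares of covered hairpins. Some of the 102 could not move, since changing the host rule leaves the set of all hairpins unchanged. Their central density and covered share were then the main values again. Over all hairpins, intronic and intergenic values differed by less than the SD over autosomes. This held for central density, positions per window, mean score and covered share. The SD is the scatter of single autosomes, so it does not decide whether the classes differ. The differences in covered share and in positions per window stayed positive under each of these alternatives, whose GC bands were those of the window. By GC of the hairpin, which was not among them, the covered share had the opposite order at 40 to 50%, with 61.8% of intronic and 69.0% of intergenic hairpins. The share of covered hairpins, 63.3%, was 44.3% when only positions at or above the median score counted and 66.1% without hairpins with an identical copy. It was 66.0% for windows of 50% GC or more and 66.2% for hairpins with at least 1 position in the window. The last of these was chosen after seeing the data, as were the splits by host and identical copies given above. The share of 44.3% uses fewer positions by construction, and for the other 3 shares the cause was not tested. The spread over autosomes is wide, so a value that stayed within it may still have moved: the intronic minus intergenic difference in covered share, 12.4 points, was 7.74 points without hairpins with an identical copy, 6.86 points with windows lacking a position left out, and 8.62, 1.52 and 24.9 points for windows below 40%, of 40 to 50% and of 50% GC or more. The difference in positions per window, 1.56, was 0.792 without identical copies, 0.658 with windows lacking a position left out and 1.51, 0.594 and 2.51 in the same 3 GC bands. The central density difference, 0.07, ranged from -0.10 to 0.26. The depth behind a score is unknown, and the list resolves scores to steps of 1.23 and 94.4% of midpoints to a 10-bp grid.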
